A study of Rattus norvegicus with 2 samples.

Results

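Chemokines and their receptors are described here in fetal rat skin. Members are all genes whose name on the array starts with Ccl, Cxcl, Xcl, Cx3cl, Ccr, Cxcr or Cx3cr. The rule found 43 of the 18345 named genes on the array, namely 30 chemokines and 13 receptors, read by 49 probes on 58 spots. Where a gene had several detected probes, the brightest was used. A gene counted as detected when at least 1 stage lay well above background on both arrays, which 36 members did. Of these, 33 were well above background in both stages on both arrays.

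Chemokines are small secreted proteins that bind G protein-coupled receptors and direct the movement of cells, mainly leukocytes, along a gradient. They are named CC, CXC, XC or CX3C after the spacing of their first cysteines, and most receptors bind several of them. In skin they are made by keratinocytes, fibroblasts, endothelium and resident leukocytes, and they guide macrophages, T cells, mast cells and the Langerhans cells of the epidermis into the tissue.

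Skin RNA of fetal Sprague Dawley rats was compared between E19, which the labels place at day 18.5, and E16, placed at day 16.5. The E19 RNA was a pool of 3 samples and the E16 RNA a pool of 4. Both pools were hybridised together to 2 Agilent arrays, with E19 in Cy5 on the first and in Cy3 on the second. The labels list no treatment and no separation of cell types, so the RNA is taken to come from all cells of the skin. Since each stage is 1 pool, no difference has a replicate check and no p-value is given. An SD is that of the 2 arrays and is technical only. Slide and scan were shared by both arrays, which leaves no batch to test. All 6 keratinocyte genes and all 6 fibroblast genes measured as a check of the tissue were well above background in both pools. In such RNA, fewer cells of a type and less RNA per cell cannot be told apart.

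Levels below are normalised intensities with the first array before the second, and they are not compared between probes. Ratios are log2 of E19 over E16. A gene was called higher in a stage, and is said to have risen or fallen, when both arrays gave a ratio of 2-fold or more in the same direction. The share of spots well above background was 71.5% to 74.3% per pool and array. Ratios of the 2 arrays correlated with r = 0.96 over the 36 detected members and r = 0.90 over all genes. Genes are not independent replicates, and the arrays share both pools.

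At E19, 5 members rose and 2 fell. Those that rose were the CC chemokines Ccl5 and Ccl21b, the CXC chemokines Cxcl10 and Cxcl7, and the receptor Ccr1. The 2 that fell were the CC chemokines Ccl12 and Ccl27. The rule called 4.14% of all 14790 detected genes in the direction of E19, 3.75% in that of E16 and 7.89% in either. The family's median ratio was 0.05, beside 0.02 over all genes. On both arrays 15 of the 36 detected members lay above 0 and 15 below 0, against 42.0% and 36.6% of all genes. By subfamily, receptors had a median of 0.79, with 6 of 8 above 0 on both arrays and 1 below. CXC chemokines had a median of 0.30, with 5 of 10 above 0 and 3 below. CC chemokines had a median of -0.29, with 3 of 16 above 0 and 10 below. Xcl1 and Cx3cl1, the 2 members of other classes, lay on opposite sides of 0. Cxcr3, counted above 0, passed detection only through E19. Ccl17, counted below 0, and Ccl24, with its arrays on either side of 0, passed only through E16. A gene that passes through 1 stage is more likely to lie on that side, so these counts and medians are partly set by the filter. The plot of ratios by subfamily shows 35 of the 36.

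**Figure D1:**
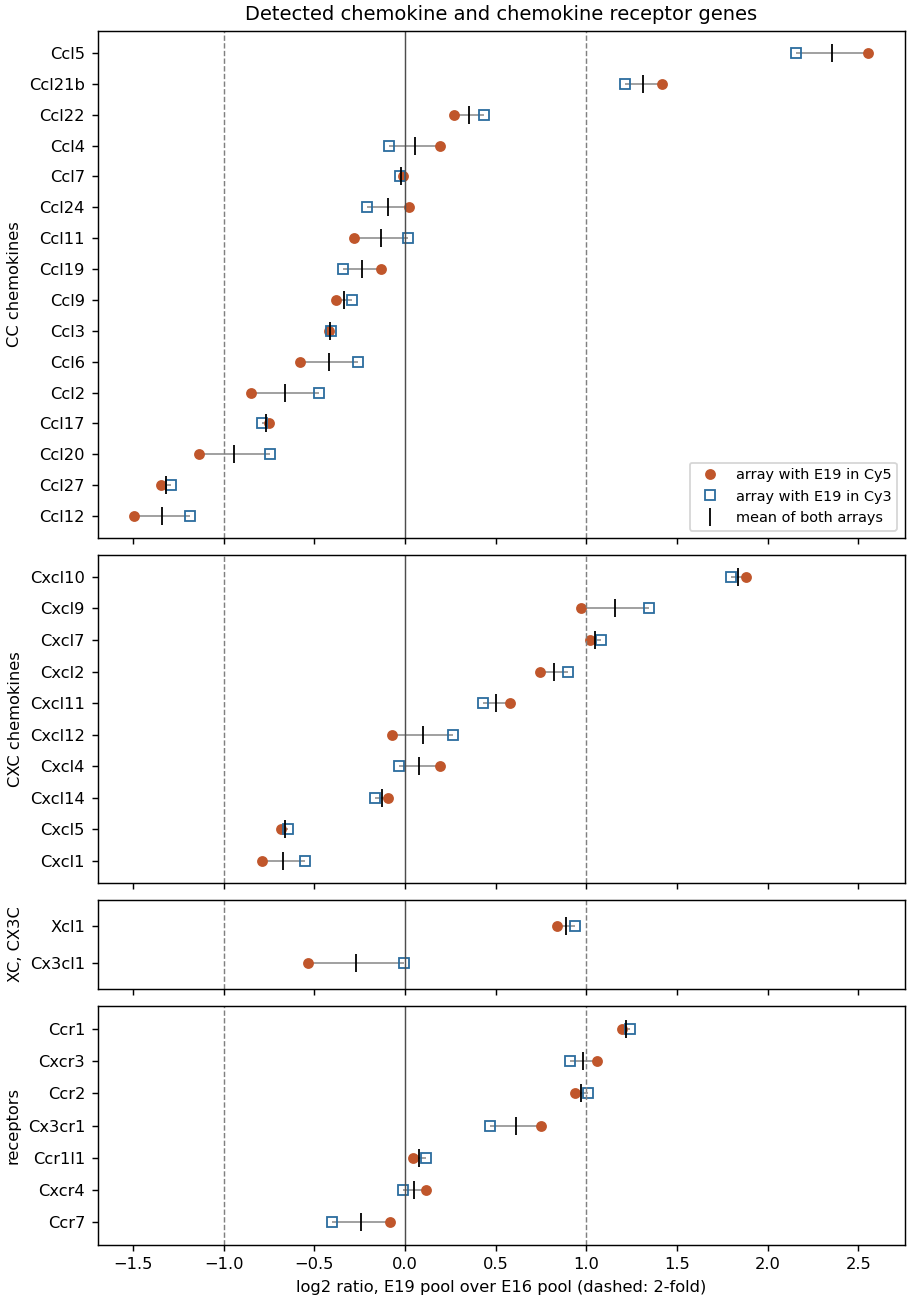
Log2 ratio of E19 over E16 for 35 detected members, in 4 panels by subfamily and sorted by size. Filled circles are the array with E19 in Cy5, open squares the array with E19 in Cy3, black ticks their mean, and dashed lines mark 2-fold; Ccl5 (2.35) lies farthest right and Ccl12 (-1.34) farthest left.

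The CXC chemokines Cxcl9, Cxcl10 and Cxcl11 are induced by interferon in many cells and share the receptor Cxcr3, which is carried by activated T cells and natural killer cells. Their genes lie side by side on rat chromosome 14. The chemokines Cxcl1 and Cxcl2, which act on neutrophils through Cxcr2, are likewise neighbours on that chromosome. The 250 bases before the start site of these 5 genes are printed because neighbours within each set had unlike ratios. They are given 5′ to 3′ on the gene's strand, from RefSeq, build GRCr8. Capitals mark matches to the interferon-stimulated response element (GAAA, any 2 bases, GAAA), to the kappaB motif (GGG, any 3 bases, TTCC), which the transcription factor NF-kB binds, and to the TATA box letters TATAAA. The first 2 motifs were searched on both strands and the TATA box on the gene's own strand.
Cxcl10 promoter, chr14:15988816-15989065, plus strand: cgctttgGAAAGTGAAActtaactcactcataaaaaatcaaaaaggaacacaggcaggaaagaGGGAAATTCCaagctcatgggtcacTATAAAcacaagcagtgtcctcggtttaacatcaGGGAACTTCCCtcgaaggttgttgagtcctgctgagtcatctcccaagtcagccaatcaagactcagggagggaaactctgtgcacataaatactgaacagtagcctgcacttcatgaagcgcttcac
Cxcl9 promoter, chr14:16006916-16007165, plus strand: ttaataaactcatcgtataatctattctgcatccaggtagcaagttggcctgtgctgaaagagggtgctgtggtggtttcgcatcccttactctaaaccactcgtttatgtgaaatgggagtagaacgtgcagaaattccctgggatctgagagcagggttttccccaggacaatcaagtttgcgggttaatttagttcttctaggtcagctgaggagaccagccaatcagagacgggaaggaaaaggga
Cxcl11 promoter, chr14:15973478-15973727, plus strand: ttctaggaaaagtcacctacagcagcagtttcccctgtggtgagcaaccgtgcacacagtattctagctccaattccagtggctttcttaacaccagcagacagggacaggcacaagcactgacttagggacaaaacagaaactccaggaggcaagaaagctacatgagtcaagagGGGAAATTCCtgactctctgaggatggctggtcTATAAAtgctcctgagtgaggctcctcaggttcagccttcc
Cxcl2 promoter, chr14:17467256-17467505, minus strand: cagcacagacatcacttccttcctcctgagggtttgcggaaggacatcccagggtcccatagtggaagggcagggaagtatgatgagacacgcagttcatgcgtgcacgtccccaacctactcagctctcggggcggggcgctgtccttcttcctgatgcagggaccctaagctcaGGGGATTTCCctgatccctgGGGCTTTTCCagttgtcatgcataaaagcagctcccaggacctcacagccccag
Cxcl1 promoter, chr14:17479322-17479571, minus strand: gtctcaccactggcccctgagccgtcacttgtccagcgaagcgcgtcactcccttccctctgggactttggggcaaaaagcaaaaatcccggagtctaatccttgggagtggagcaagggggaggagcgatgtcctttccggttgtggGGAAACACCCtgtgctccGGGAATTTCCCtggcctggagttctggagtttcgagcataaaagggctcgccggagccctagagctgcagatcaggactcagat

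Cxcl10 held the response element once and the kappaB letters in 2 places, 1 of which matched on both strands and so is written as a longer run. Cxcl11 held the kappaB letters once. Cxcl2 held them at 2 positions. Cxcl1 also held them in 2 places, 1 of which matched on both strands. Cxcl9 held none of the 3 motifs in this window. TATA box letters were found before Cxcl10 and Cxcl11. Promoter entries were found for 32 of the 43 members. The kappaB letters occurred in 10 of these 32 (31.2%), against 4.53% of 33469 rat promoters of the same length. TATA box letters occurred in 10 of 32 (31.2%), against 8.06% of all. The response element occurred in 2 of 32 (6.25%), before Cxcl10 and Ccl19, against 3.41% of all. A match describes the letters only. Members with the kappaB letters had ratios on both sides of 0, among them Cxcl10 (1.84), Cxcl2 (0.82), Ccl7 (-0.02), Cxcl1 (-0.67) and Ccl20 (-0.94).

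Of the 3 neighbours that share Cxcr3, Cxcl10 rose. Cxcl10 had levels of 7860 and 7014 in E19, against 2136 and 2021 in E16. It was 3.57-fold higher in E19 (1.84 ± 0.06), the second-largest ratio of the family, and the pools lay far apart on both arrays. Cxcl9 had levels of 791 and 817 in E19, against 404 and 321 in E16. Its ratio was 0.97 on the first array and 1.34 on the second, so it was not called although the pools did not overlap. It was called without the background offset (1.29), without background subtraction (1.23), with the scanner's processed signals (1.45), with median centring (1.16) and in the authors' deposited table (1.44). Centred on spike-in RNAs it was 0.94 and not called. Cxcl11 had 292 and 263 in E19, against 196 and 195 in E16, with a smaller ratio (0.50 ± 0.10). Cxcr3, their shared receptor, had 216 and 180 in E19, against 104 and 96 in E16. It was well above background in E16 on only 1 of 2 arrays. Its ratio of 0.98 ± 0.11 passed 2-fold only on the first array, so it was not called. Without the background offset it was 1.68, with the scanner's processed signals 2.39, and it was 2.38 in the authors' deposited table and called in each. With median centring (1.07) and centred on spike-in RNAs (0.77) it was not called. Genes of T cells and natural killer cells were measured beside these. All 8 detected of 10 on the array lay above 0 on both arrays, with a median of 0.65. Their summed levels were 3240 to 3470 in E19, against 1753 to 1831 in E16. Gzmb (well above background in E16 on 0 of 2 arrays) and Cd2 (on 1 of 2) passed detection only through E19. A gene that passes this way is more likely to lie above 0, so the count is partly set by the filter. The T cell receptor chain gene Cd3g (1.93 ± 0.08) and the granule gene Nkg7 (1.52 ± 0.19) rose, while the defining genes Cd3e and Cd4 were not detected. Cd3d, another such chain gene, did not follow Cd3g, with 537 and 656 in E19, against 513 and 611 in E16 (0.08 ± 0.03). The part of these cell types in the chemokine ratios was not tested.

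Ccl5 had the largest ratio of the family. It attracts T cells, monocytes and eosinophils and binds Ccr1 and Ccr3. Ccl5 had levels of 1498 and 884 in E19, against 255 and 198 in E16, which is 5.11-fold higher in E19 (2.35 ± 0.28). The E19 level differed between the arrays, but both E19 values lay above both E16 values. The inflammatory chemokines Ccl3 and Ccl4 did not pass the rule. Ccl3 had 7117 and 6684 in E19, against 9508 and 8874 in E16 (-0.41 ± 0.01). Ccl4 had 291 and 217 in E19, against 255 and 231 in E16, so its pools overlapped (0.05 ± 0.20). Ccl6 and Ccl9, which in mouse bind Ccr1, lie next to Ccl3. Ccl6 had 4119 and 4411 in E19, against 6158 and 5276 in E16 (-0.42 ± 0.23). Ccl9 was dim, with 104 and 123 in E19, against 135 and 150 in E16 (-0.33 ± 0.06).

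Among the receptors of these chemokines, Ccr1 rose. Ccr1 is carried by monocytes, macrophages and neutrophils. It had 2265 and 2209 in E19, against 990 and 937 in E16, a 2.32-fold difference (1.22 ± 0.03). The call was lost with median centring (1.18) and with spike-in centring, where the ratio was 0.9997. Ccr1l1, a rodent gene of the same receptor cluster, had 132 and 131 in E19, against 128 and 121 in E16 (0.08 ± 0.05). Ccr3, the eosinophil receptor, was not detected.

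The monocyte-attracting chemokines Ccl2, Ccl7 and Ccl12 did not move together. In mouse all 3 bind Ccr2, the receptor that draws monocytes out of the bone marrow. Ccl12 fell at E19. It had 3593 and 3792 in E19, against 10106 and 8628 in E16, and was 2.53-fold higher in E16 (-1.34 ± 0.22). Ccl2 had 18088 and 20504 in E19, against 32610 and 28509 in E16. The array holds 10 spots of its probe, and these had ratios of -0.88 to -0.79 on the first array and -0.53 to -0.35 on the second. The spread among spots, an SD of 0.03 on the first array and 0.06 on the second, was thus smaller than the gap between the arrays (mean -0.66 ± 0.27). Ccl7 had 3076 and 2901 in E19, against 3099 and 2959 in E16 (-0.02 ± 0.01), and a second probe gave -0.03 ± 0.05. Ccr2 itself had 315 and 305 in E19, against 165 and 151 in E16. Its ratio was 0.93 on the first array and 1.01 on the second, just short of the rule. With the scanner's processed signals it was 1.65, and centred on spike-in RNAs 0.76. The receptor and the called chemokine of this set thus lay on opposite sides of 0.

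Macrophage genes lay mostly above 0 beside these receptors. Of 11 on the array all were detected, 10 were above 0 on both arrays, and the median was 0.53. Their summed levels were 179031 to 184994 in E19, against 112836 to 117892 in E16. The lysozyme gene Lyz2 (1.64 ± 0.08) and the scavenger receptor gene Cd163 (1.62 ± 0.05) rose. Adgre1, which encodes the macrophage surface protein F4/80, was at -0.25 ± 0.11. The pan-leukocyte gene Ptprc, which encodes CD45, was at 0.82 ± 0.15, and the 4 detected pan-leukocyte genes had a median of 0.64 with sums of 57404 to 60788 in E19, against 39831 to 42505 in E16. Their part in the receptor ratios was not tested.

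**Figure D2:**
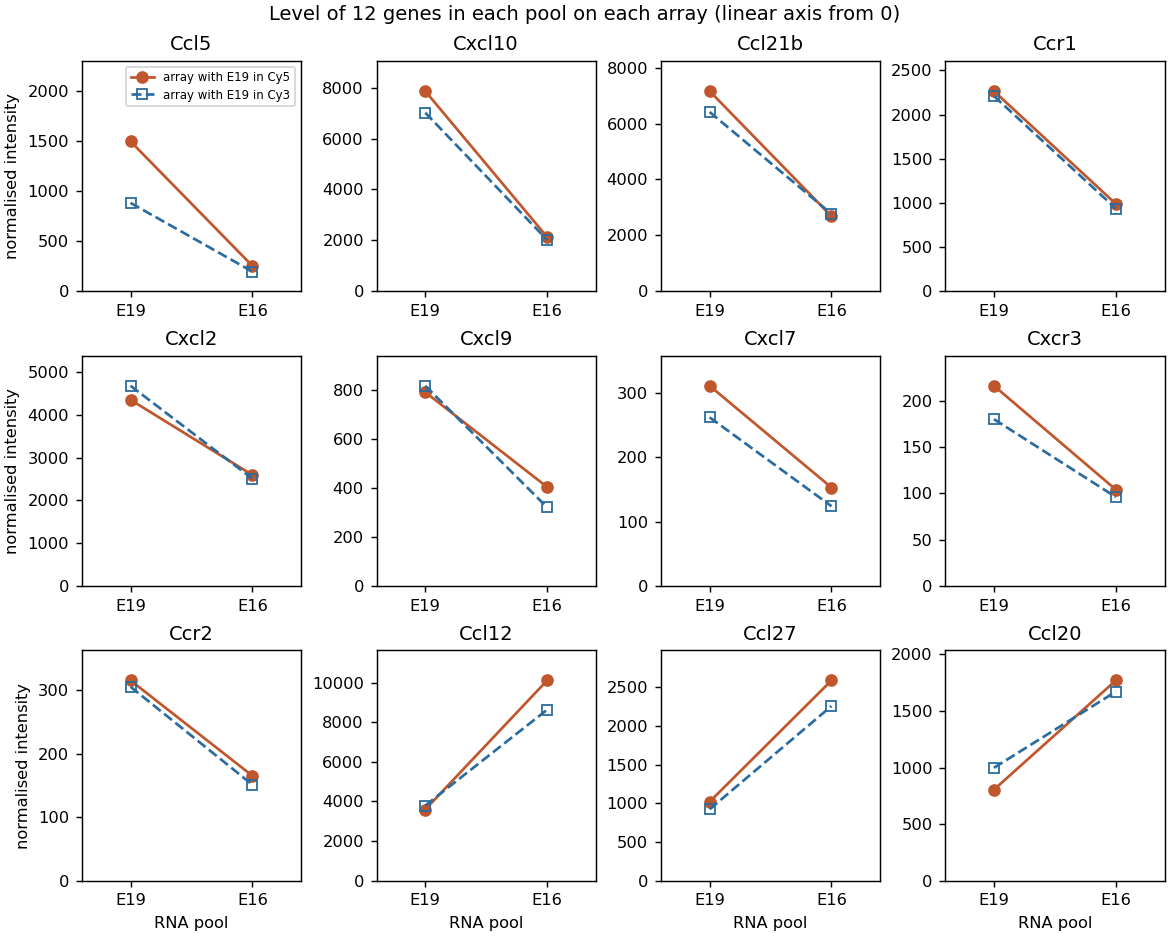
Normalised intensity (linear axes from 0) of 12 members in the E19 pool, left, and the E16 pool, right, with a line per array; filled circles are the array with E19 in Cy5 and open squares the array with E19 in Cy3. In the 9 panels from Ccl5 to Ccr2 both E19 values lie above both E16 values, and in those of Ccl12, Ccl27 and Ccl20 both lie below.

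Ccl21b and Ccl27, which lie close together on chromosome 5, were called in opposite directions. Ccl21 is made by lymphatic endothelium and lymph node stroma and guides Ccr7-bearing dendritic cells and T cells. The gene listed as Ccl21b, named Ccl21 in RefSeq, had 7158 and 6414 in E19, against 2685 and 2770 in E16. It was 2.48-fold higher in E19 (1.31 ± 0.14), with no overlap of the pools. The call was lost with median centring (1.25) and with spike-in centring (1.0964). In mouse this gene has near-identical copies, and whether the probe reads more than 1 copy in rat was not tested. Ccl19, the other chemokine that binds Ccr7, had 218 and 201 in E19, against 239 and 254 in E16 (-0.24 ± 0.15). Ccr7 itself was dim, with 161 and 135 in E19, against 171 and 178 in E16 (-0.24 ± 0.22). The receptor and this second chemokine thus did not share the direction of Ccl21b. Of the 6 endothelial genes measured beside them, 4 lay above 0 on both arrays and 0 below 0. Plvap had the largest ratio (0.86 ± 0.11). The 6 genes had a median of 0.33, and 0 were called, beside 7.89% of all genes in either direction. Their sums overlapped between the stages, at 46394 and 57159 in E19, against 49952 and 41225 in E16.

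Ccl27 is a chemokine of epidermal keratinocytes that draws T cells to skin through the receptor Ccr10. It had 1020 and 923 in E19, against 2588 and 2257 in E16, and was 2.49-fold higher in E16 (-1.32 ± 0.04). The arrays differed little for this gene. Ccr10, listed on the array under the old name Gpr2 and so no member, had 187 and 156 in E19, against 119 and 115 in E16 (0.55 ± 0.16). Ccl28, the other chemokine that binds Ccr10, was not detected. Ccl20, an epithelial chemokine known for attracting Ccr6-bearing dendritic cells and T cells, had 805 and 998 in E19, against 1770 and 1671 in E16. Its ratio was -1.14 on the first array and -0.74 on the second, so it was not called. Ccr6 was not detected.

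Keratinocyte genes ran the other way from Ccl27. All 6 on the array were detected and 5 lay above 0 on both arrays, with a median of 1.12. The desmosomal gene Dsp (1.70 ± 0.10) and the basal keratin Krt5 (1.11 ± 0.02) rose. Their summed levels were 647180 to 667793 in E19, against 192665 to 365122 in E16, where the keratin Krt14 alone read 32884 on the first array and 164139 on the second. Fibroblast genes had a median of 0.62, with 5 of 6 above 0 on both arrays and 1 below. Only Dcn, which encodes the matrix protein decorin, was called (1.36 ± 0.04), beside 7.89% of all genes in either direction. The collagen genes Col1a1 (0.53 ± 0.69) and Col1a2 (0.72 ± 0.60), between which the median lies, differed widely between the arrays. So did Col3a1 (0.90 ± 1.18). The receptor gene Pdgfra was the one below 0 (-0.31 ± 0.12). The part of keratinocytes and fibroblasts in the Ccl27 and Ccl20 ratios was not tested. Langerhans and dendritic cell genes had 4 detected of 6 on the array, a median of 0.58, and sums of 4458 to 5111 in E19, against 4044 to 4296 in E16. Of these, 3 lay above 0 on both arrays and 1 below. The cytokine receptor Flt3 was the single one called (1.05 ± 0.02), beside the same 7.89% of all genes. The maturation marker Cd83 had 1852 and 1566 in E19, against 2594 and 2370 in E16 (-0.54 ± 0.08). Xcr1 and Zbtb46 were not detected, and no probe used here reads the Langerhans marker Cd207.

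Chemokines of type 2 immune responses were dim or lay near 0. Ccl17 and Ccl22 attract Ccr4-bearing T cells. Ccl17 had 114 and 117 in E19, where it was well above background on only 1 of 2 arrays, against 192 and 201 in E16. Its ratio was -0.77 ± 0.03, but -1.26 without the background offset, -1.74 with the scanner's processed signals and -1.73 in the authors' deposited table, and it was called in each. Ccl22 had 571 and 599 in E19, against 472 and 442 in E16 (0.36 ± 0.12). A second Ccl22 probe read the other direction, with 283 and 272 in E19, against 334 and 332 in E16 (-0.26 ± 0.03). The eosinophil-attracting chemokine Ccl11 had 620 and 909 in E19, against 754 and 899 in E16, so its pools overlapped (-0.13 ± 0.21). Ccl24, of like function, had 116 and 99 in E19, against 114 and 114 in E16 (-0.09 ± 0.16). It was well above background in E19 on only 1 of 2 arrays. The receptors Ccr4 and Ccr8 were not detected.

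The neutrophil-attracting CXC chemokines split. Cxcl1 and Cxcl2 bind Cxcr2, and their genes are adjacent. Cxcl2 had 4353 and 4681 in E19, against 2596 and 2510 in E16 (0.82 ± 0.11). Cxcl1 had 2585 and 2502 in E19, against 4465 and 3671 in E16 (-0.67 ± 0.17). Neither passed the rule, but the pools did not overlap for either gene, with E19 higher for Cxcl2 and E16 higher for Cxcl1. Cxcl5, named Cxcl6 in RefSeq, also acts on neutrophils. It had 121 and 132 in E19, against 195 and 206 in E16 (-0.66 ± 0.03), and was at -1.27 with the scanner's processed signals, where it was called. Cxcl7, the platelet chemokine encoded by Ppbp, rose to 311 and 262 in E19, against 153 and 124 in E16. It was 2.07-fold higher in E19 (1.05 ± 0.04), close to the limit of the rule. With the scanner's processed signals its ratio was 1.89, and centred on spike-in RNAs it was 0.83 and no longer called. Cxcl4, the other platelet chemokine, encoded by Pf4, had 8505 and 7569 in E19, against 7452 and 7740 in E16 (0.08 ± 0.16). The 4 detected platelet genes, which include Ppbp and Pf4, had a median of 0.04. Only Ppbp was called, beside 7.89% of all genes in either direction. The platelet receptor genes Gp9 (-0.37 ± 0.34) and Gp1bb (0.00 ± 0.26) were not.

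Cxcr2, the shared receptor, appears on the array as Il8rb and is therefore no member. It had 316 and 246 in E19, against 144 and 128 in E16. Its ratio was 1.13 on the first array and 0.95 on the second. Neutrophil genes measured beside it all lay above 0 on both arrays, 6 detected of 7 on the array, with a median of 0.74. Their sums were 28082 to 29602 in E19, against 5414 to 5450 in E16. S100a8 alone had 14966 and 16903 in E19, against 2433 and 2477 in E16. It rose (2.70 ± 0.11), as did S100a9 (2.82 ± 0.04), and keratinocytes also express both. The granule gene Mpo was at 0.63 ± 0.13 and passed detection only through E19, being well above background in E16 on 1 of 2 arrays. Camp was at 0.86 ± 0.19, and Ltf was not detected. Their part in these ratios was not tested.

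The chemokines known for tissue upkeep were well above background and were not called. Cxcl12, which holds stem cells and leukocytes in place through Cxcr4, was read by probes for 2 transcripts. The brighter had 22200 and 27162 in E19, against 23338 and 22593 in E16, so its pools overlapped (0.10 ± 0.24). The other had 16648 and 14063 in E19, against 24313 and 21282 in E16 (-0.57 ± 0.04), with no overlap. The probes of this gene thus differed by more than the spread between arrays. Cxcr4 had 1748 and 1614 in E19, against 1616 and 1628 in E16 (0.05 ± 0.09), and its second probe gave 0.01 ± 0.01. Cxcl14, an abundant chemokine of healthy epidermis, had 31829 and 29223 in E19, against 33930 and 32749 in E16 (-0.13 ± 0.05).

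Cx3cl1 is a membrane-bound chemokine of endothelium, epithelium and neurons, and Cx3cr1 is its receptor on monocytes and resident macrophages. Cx3cl1 had 4525 and 5830 in E19, against 6564 and 5845 in E16, with a ratio of -0.54 on the first array and near 0 on the second (-0.27 ± 0.38). Cx3cr1 had 338 and 276 in E19, against 201 and 199 in E16 (0.61 ± 0.20), with no overlap. Xcl1, a chemokine of activated T cells and natural killer cells, had 310 and 284 in E19, against 174 and 149 in E16 (0.89 ± 0.07). It was at 1.59 with the scanner's processed signals and called there, and at 0.67 and not called when centred on spike-in RNAs. Its receptor Xcr1, which fell outside the rule, was not detected.

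In all, 7 members were not detected: the chemokines Ccl25 and Ccl28 and the receptors Ccr3, Ccr4, Ccr6, Ccr8 and Ccr9. Their levels ranged from 70 to 110 over both stages, so no difference is read at this signal. The highest were those of Ccr9, with 110 and 101 in E19, against 92 and 94 in E16. Ccr9 was well above background in E19 on 1 of 2 arrays. Among the 36 detected members, 15 had every E19 value above every E16 value and 14 had every E16 value above every E19 value. The same count was not made over all genes, so it is not read as a trait of the family. It includes narrow gaps, such as 5830 in E19 against 5845 in E16 for Cx3cl1, and 131 against 128 for Ccr1l1. The mean ratio of 16 was within 0.5 of 0.

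Neighbouring genes had ratios of either sign. On chromosome 10, Ccl2, Ccl7, Ccl11 and Ccl12 follow each other with 0 other coding genes between them. Ccl5, Ccl9, Ccl6, Ccl3 and Ccl4 form a second such run on that chromosome, 28 coding genes away. Ccl12 fell at E19 and Ccl5 rose, while the other 7 were not called. On chromosome 14, Cxcl11, Cxcl10 and Cxcl9 lie 17 coding genes from Cxcl2 and Cxcl1, and Cxcl4, Cxcl7 and Cxcl5 follow after 2 more. All 3 members of the first run lay above 0 on both arrays, while the other runs held ratios on both sides of 0. On chromosome 5, Ccl27 and Ccl19 are adjacent and Ccl21b follows after 1 coding gene. The receptors Ccr1, Ccr3, Ccr1l1 and Ccr2 are adjacent on chromosome 8. The order is that of RefSeq, build GRCr8.

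**Figure D3:**
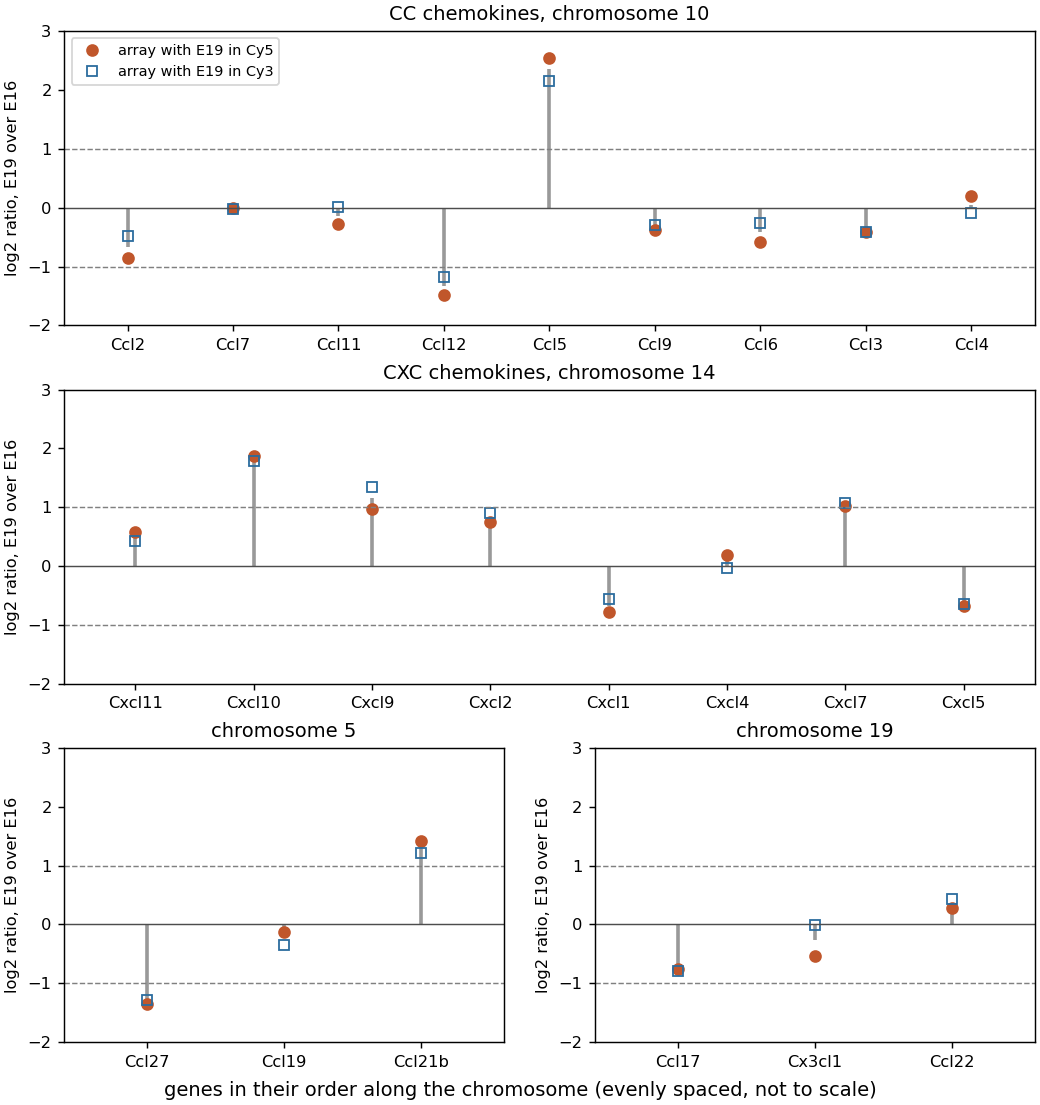
Log2 ratio of E19 over E16 for chemokine genes in their order on chromosomes 10, 14, 5 and 19, evenly spaced and not to scale. Bars are the mean, filled circles the array with E19 in Cy5, open squares the array with E19 in Cy3, and dashed lines 2-fold; Ccl5 (2.35) and Ccl12 (-1.34) stand in the same panel as 7 genes within 1 of 0.

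Of 8 family genes that the rule missed, 7 stand on the array under another name, and Xcr1 has a prefix that the rule does not hold. Of the 8, 5 were detected and 0 were called, beside 7.89% of all genes in either direction. Besides Cxcr2 and Ccr10, the neutrophil chemokine Cxcl3, listed as Gm1960, had 987 and 1004 in E19, against 717 and 684 in E16 (0.51 ± 0.07). The B cell chemokine Cxcl13 had 1412 and 1391 in E19, against 1580 and 1402 in E16 (-0.09 ± 0.11), and its receptor Cxcr5 was not detected. Of related genes under other family names, 6 of 8 were on the array, and only Rarres2 was called, beside the same 7.89%. Rarres2 encodes chemerin, an attractant of Cmklr1-bearing dendritic cells and macrophages. It had 3707 and 3601 in E19, against 1745 and 1652 in E16 (1.11 ± 0.03), while Cmklr1 was at 0.11 ± 0.01. The decoy receptor Ackr2, which removes CC chemokines, was not well above background in E16. Its level in E19 was at least 1.57-fold higher, with the lowest well-measured signal or the probe's own E16 signal, whichever was higher, in place of the E16 level.

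Of 21 detected receptor signalling genes, 1 was called, beside 7.89% of all genes in either direction. Of the 21, 10 lay above 0 and 4 below 0 on both arrays, with a median of 0.12. The kinase gene Ptk2b, which acts downstream of chemokine receptors, was the one called, with 1549 and 1500 in E19, against 633 and 654 in E16 (1.24 ± 0.07). Rgs1, an inhibitor of receptor G proteins in leukocytes, was at 0.95 ± 0.03, and the G protein subunit gene Gng2 at -1.08 ± 0.12, neither of them called. Of 10 detected genes whose proteins bind or cleave chemokines, 0 were called, beside the same 7.89% of all genes. Dpp4, a protease that trims Cxcl10 and Cxcl12, had the largest ratio of these, 0.70 on the first array and 1.31 on the second (1.01 ± 0.43).

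Among 15 detected cytokine, adhesion and NF-kB genes that induce chemokines or act with them, 2 rose and 1 fell. Over all genes 4.14% rose and 3.75% fell. The median of the 15 was 0.05. The cytokine Il1b had 7547 and 7931 in E19, against 3309 and 3009 in E16 (1.29 ± 0.15). Il1a had 1248 and 1325 in E19, against 496 and 476 in E16 (1.41 ± 0.10). Vcam1, the adhesion molecule on which leukocytes arrest, fell to 9832 and 10992 in E19, against 37353 and 30712 in E16 (-1.70 ± 0.31). The NF-kB subunit genes Nfkb1 (0.00 ± 0.16) and Rela (0.27 ± 0.13) and the cytokine Tnf (-0.03 ± 0.11) were not called. Ifng, the main inducer of the Cxcr3 chemokines, was not detected.

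Mast cell genes had the highest median of the leukocyte lists measured (1.14). Of 7 detected, 5 rose and 0 fell, beside 4.14% and 3.75% of all genes. The other 2, the growth factor receptor gene Kit (-0.06 ± 0.04) and the tryptase gene Tpsab1 (-0.03 ± 0.03), lay just below 0 on both arrays. The protease genes Cpa3 (1.47 ± 0.21) and Tpsb2 (1.34 ± 0.06), the histamine enzyme gene Hdc (1.19 ± 0.02) and Ms4a2, a chain of the IgE receptor (1.14 ± 0.04), had the largest ratios. The sums of all 7 were 34632 to 36928 in E19, against 16926 to 17639 in E16, and Fcer1a was not detected. B cell genes had 2 detected of 3 on the array, with sums of 199 to 211 in E19, against 217 in E16 on both arrays, and Ms4a1 was not detected. These sums lay near those of undetected probes. The part of either cell type in the chemokine ratios was not tested.

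**Figure D4:**
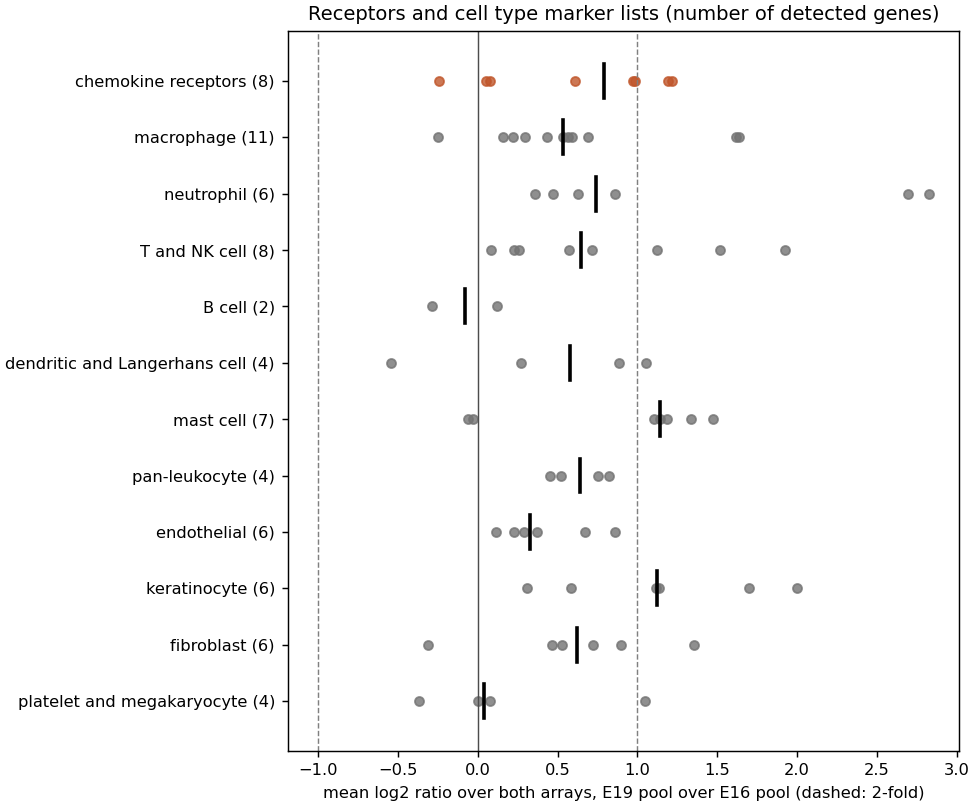
Mean log2 ratio of E19 over E16 for each detected chemokine receptor (top row) and each detected gene of 11 cell type lists, with the number of genes in brackets. Some genes passed detection through 1 stage only, among them the receptor Cxcr3 through E19. Points are genes, black bars are medians and dashed lines 2-fold; the receptors' median is 0.79, that of mast cell genes 1.14 and that of B cell genes -0.08.

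Processing moved single members across the rule without turning any called one. Ccl5, Cxcl10, Ccl12 and Ccl27 were called in each of the 12 alternatives run at the same fold limit. Ccl21b and Ccr1 lost the call with median centring and, like Cxcl7, when ratios were centred on spike-in RNAs. The 10 spike-ins had a mean ratio of 0.22, so this centring lowered the median of all genes to -0.20 and that of the members to -0.16. In the authors' deposited table, read as E19 over E16, 11 members reached 2-fold in the direction of E19 and 4 in that of E16, beside 8.1% and 6.75% of all genes.

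**Figure D5:**
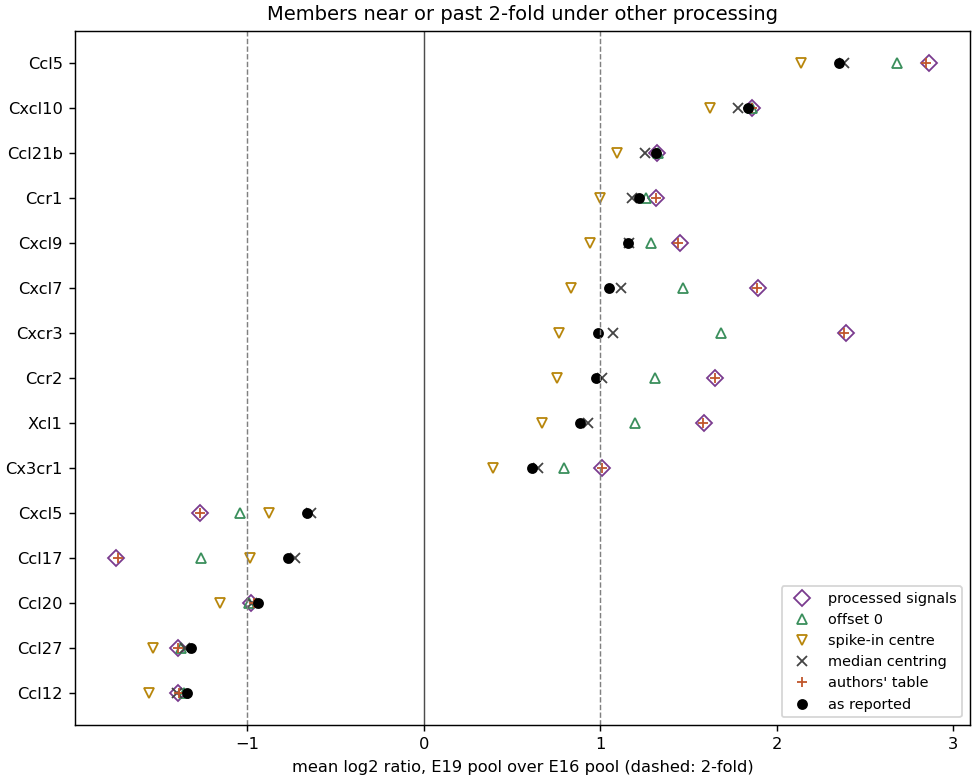
Mean log2 ratio of E19 over E16 for 15 members near or past 2-fold, under the reported processing (filled circles) and 5 alternatives (other symbols); dashed lines mark 2-fold. Dim genes such as Cxcr3 (0.98 as reported, 2.39 with processed signals) and Ccl17 (-0.77, -1.74) spread widest, while every Ccl27 and Ccl12 symbol lies below -1.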

How the data were processed

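Per the file headers, Agilent Feature Extraction 9.5.1.1 measured the spot intensity of each channel, and the deposited files give mean intensity and local median background uncorrected. Per the file headers it also wrote processed intensities, a log10 ratio of Cy5 over Cy3, and other flags for background and outliers. Per sequence, the authors' deposited table holds 1 log10 ratio and its p-value for both arrays together; how they were combined is not given in the sources used here. It was read as E19 over E16 because over genes its correlation with Cy5 over Cy3 was 0.97 on the first array, where E19 was in Cy5, and -0.97 on the second. Its p-values are not used.

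RNA was extracted with NucleoSpin RNA II and labelled with the Agilent Low RNA Input Linear Amp Kit, per the labels. Background was corrected with normexp (offset 50) and each array's log2 ratios by loess, control spots at weight 0, with limma 3.58.1 in R 4.3.3. Outlier-flagged spots were left out (192 and 318) and saturated spots kept (7 and 15). Spots of a probe were averaged, ratios turned to E19 over E16, and both arrays averaged. Levels are per channel after Aquantile normalisation. The steps were tested on simulated data, and later steps used Python 3.11.15 with pandas 2.3.3. The arrays hold the same pools and count as 1 replicate, so their number limits the precision. Of 41012 probes, 10726 were named in RefSeq (GRCr8) by accession, 5580 by symbol and 3729 by synonym, 3371 kept the name in the files and 17606 have none. The files name no genome build, so no probe position is given.

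Every member is named but 1, which is not reported here. From each of 15 other lists up to 4 called genes of largest ratio are named, or the gene of largest ratio where none was called. Other genes with values were chosen after their values were seen. Members and lists were chosen with earlier results of these data known. Alternatives covered the background correction, centring, detection filter, probe choice, saturation, fold limit, the authors' deposited table and each array alone.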

Additional observations from a re-analysis of the deposited data

How the results depend on the processing

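Of 36 detected members, 5 were called higher in E19 and 2 higher in E16. With offset 0 the counts were 9 and 4, with processed signals 9 and 4, 11 and 4 in the authors' deposited table, without background subtraction 8 and 2, with spike-in centring 2 and 2, at 1.5-fold 11 and 5, and at 3-fold 2 and 0. Over all genes the shares were 4.14% and 3.75% as reported, 5.25% and 5.23% with offset 0, and 6.86% and 6.01% with processed signals. They were 8.1% and 6.75% in the authors' deposited table and 4.57% and 4.37% without background subtraction. With spike-in centring they were 2.64% and 5.47%, at 1.5-fold 9.55% and 7.69%, and at 3-fold 1.2% and 1.56%. The fold limits move the count by construction, as does spike-in centring, which takes 0.22 from every ratio. The offset of 50, added to both channels, draws the ratios of dim spots toward 0 and is included in the levels. The cause of the remaining moves was not tested. Median centring gave 5 and 2, beside 2.48% and 2.97% of all genes, but without Ccl21b and Ccr1 and with Cxcl9 among them. Each array alone gave 6 to 8 and 2 to 3, since a call then needs 1 array: 8 on the array with E19 in Cy3 and 6 on the other. Of all genes, 5.24% and 4.64% were called on the array with E19 in Cy3, and 5.0% and 4.59% on the other. The members' median (0.05) was 0.0168 with median centring, -0.1645 with spike-in centring, 0.002 with the mean of all probes, and between -0.0076 and 0.0334 with an array left out. No called member turned. Of the single values, 338 stayed within the SD of the arrays and 91 moved beyond it. By over 1.5-fold, 7 members moved: Ccl17, Cxcl5, Cxcl7, Cxcr3, Ccr2 and Xcl1, as given above, and Ccl9 (-0.92 with processed signals). The calls were the same with no detection filter, with both pools above background, with the mean of all probes and without saturated spots. Whether signal near background also limited the ratios of the dim members was not tested. No paired analysis was possible because each stage is 1 RNA pool.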
